A study of Mus musculus with 18 samples.

Results

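The autophagy genes are 42 genes listed by symbol for their place in the machinery that encloses cell contents and delivers them to the lysosome. The rule for membership uses gene symbols and no threshold on a measured value. The list was, however, chosen with earlier results of these data known, so its shares beside those of all genes only describe it. They were followed in RNA of cells released from the ileum of 18 mice, hybridised to 1-colour Agilent arrays. All 42 were among the 37074 gene names on the array, and all 42 were among the 21542 gene names tested. They fall into 5 steps: initiation (6 genes), nucleation (11 genes), conjugation (16 genes), cargo receptors (5 genes) and lysosomal control (4 genes). Each gene was read from its brightest probe, which lay well above background on 18 of 18 arrays for every one of the 42.

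The study asked what PGC1alpha, a co-activator of genes for mitochondria and energy metabolism, does in the gut of mice fed a Western diet. There were 6 mice in each of 3 groups. The iPGC1afl/fl CHOW mice carried the floxed Pgc1alpha allele without Cre and ate standard chow. The iPGC1afl/fl HFD mice were of the same genotype and ate the Western diet, labelled HFD, with 42% of its energy from fat and 0.2% cholesterol. The iPGC1a-/- HFD mice ate that diet and carried the same floxed allele with a Cre driven by the villin promoter, which acts in epithelial cells of the intestine and not in the other cells of the gut wall. All mice were on a C57BL6/J background, began their diets at 8 weeks of age, stayed on them for 8 weeks, and were killed after an overnight fast at Zeitgeber time 3, so the chow mice too were fasted. Chow-fed iPGC1a-/- mice were not analysed here, so the effect of the deletion was measured on the Western diet alone.

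On each of the 18 arrays 56.3% to 62.3% of the spots lay well above background and none was saturated. The 3 slides each held 2 arrays of every group. Ppargc1a, the targeted gene, was not lower on the arrays labelled iPGC1a-/-: the log2 signal of its brightest probe ran from 10.104 to 11.251 in the iPGC1afl/fl CHOW group, from 11.26 to 11.45 in the iPGC1afl/fl HFD group and from 11.36 to 12.01 in the iPGC1a-/- HFD group, with a log2 fold change between the last 2 groups of 0.30 (adjusted p = 0.573, limma). Whether its probes lie in the deleted exons was not determined, so they do not check the genotype, and groups are named as labelled. The study itself reports RT-qPCR evidence of the deletion in the intestinal tracts, which was not read from these arrays. Enterocyte markers such as Vil1, Fabp2 and Alpi, 12 genes in all, were well above background on 18 of 18 arrays.

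Autophagy begins when the ULK kinase complex is switched on by a lack of nutrients or energy. A lipid kinase complex built around Beclin 1 then marks the membrane from which a cup-shaped phagophore grows. Proteins of the LC3 and GABARAP families are attached to the lipid of that membrane by a chain of enzymes that resembles ubiquitin conjugation, cargo receptors bind both these proteins and the cargo, and the closed autophagosome fuses with a lysosome. In the intestine the pathway is known for its part in Paneth cell secretion, in the handling of invading bacteria and in the clearance of damaged mitochondria. Protein amount, lipidation and flux through the pathway were not measured here, and a transcript level does not stand for them.

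On the Western diet, 11 of the 42 genes (26.2%) were higher and none was lower in iPGC1afl/fl mice at an adjusted p of 0.05 or less (limma, Benjamini-Hochberg over all probes tested). Of all 21542 genes, 10.4% passed higher and 14.2% passed lower in this comparison. Among the genes whose brightest probe was well above background on every array, as those of the 42 were, 11.0% passed higher. The mean was higher on the Western diet for 33 of the 42 genes (78.6%) and for 50.5% of all genes, and the median log2 fold change was 0.12 over the 42 and 0.00310 over all genes. One gene, Bnip3, passed with a change above 1.5-fold, which 3.22% of all genes did in that direction. In 4 genes, Bnip3, Lamp1, Atg16l2 and Sqstm1, every Western diet array lay above every chow array, as was so for 5.11% of all genes. Most of the 42 changed little: the 95% confidence interval of the change lay within 1.5-fold in either direction for 36 of them. The same held for 16324 of all 21542 genes.

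**Figure D1:**
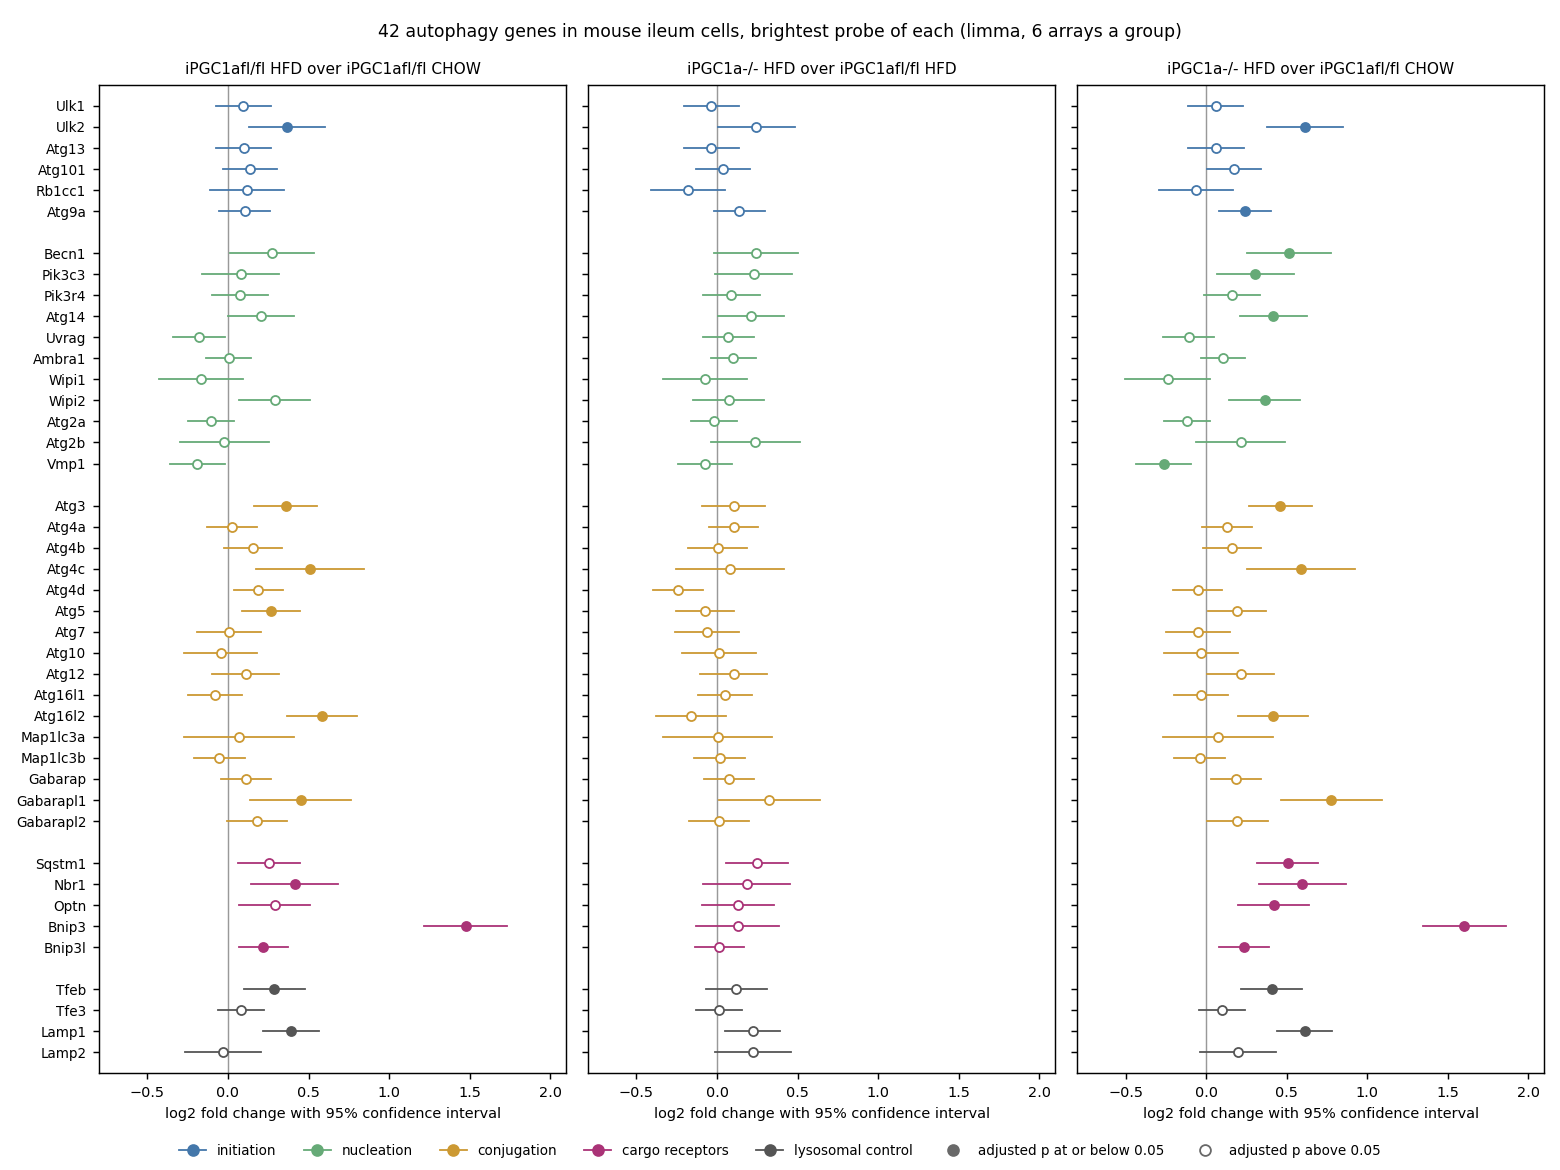
Log2 fold changes with 95% confidence intervals (unadjusted) of the 42 genes, grouped by step, in the 3 comparisons, with 6 arrays a group; filled points have an adjusted p of 0.05 or less. Against chow the filled points lie to the right, with Bnip3 at 1.48 and 1.60 and Vmp1 at -0.26 as the filled point to the left, and no point is filled in the comparison of genotypes on the Western diet.

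Between the genotypes on the same diet there was no call by limma: 0 of the 42 genes passed between the arrays labelled iPGC1a-/- HFD and the iPGC1afl/fl HFD arrays, where 49 of all genes did (0.227%). At an unadjusted p under 0.05 there were 6 of the 42, 5 of them higher and 1 lower, beside 9.29% of all genes (941 higher and 1060 lower). For 41 of the 42 the 95% confidence interval lay within 1.5-fold, as it did for 19525 of all 21542 genes.

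The sequences before the start sites of 4 genes that rose on the Western diet are shown because each holds CACGTG, the E-box core bound by many basic helix-loop-helix factors, TFEB and TFE3 among them. They are RefSeq promoter sequences on GRCm38.p6, limited to the 250 bases before the annotated start, written 5′ to 3′ on the gene's own strand with each CACGTG in capitals. A promoter was at hand for 35 of the 42 genes, and windows of 250 bases before to 50 after the start were searched on both strands.
Bnip3 (chr7:138909507-138909756, minus strand): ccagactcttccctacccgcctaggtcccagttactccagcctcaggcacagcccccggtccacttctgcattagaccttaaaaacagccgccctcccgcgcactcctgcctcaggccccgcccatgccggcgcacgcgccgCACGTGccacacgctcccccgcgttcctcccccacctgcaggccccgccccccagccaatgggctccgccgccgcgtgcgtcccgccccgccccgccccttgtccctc
Lamp1 (chr8:13158911-13159160, plus strand): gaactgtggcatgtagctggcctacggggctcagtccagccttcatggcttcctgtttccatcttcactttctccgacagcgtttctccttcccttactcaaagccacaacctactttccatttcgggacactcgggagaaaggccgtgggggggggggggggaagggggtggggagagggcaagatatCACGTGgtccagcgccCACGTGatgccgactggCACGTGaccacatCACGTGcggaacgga
Atg3 (chr16:45158579-45158828, plus strand): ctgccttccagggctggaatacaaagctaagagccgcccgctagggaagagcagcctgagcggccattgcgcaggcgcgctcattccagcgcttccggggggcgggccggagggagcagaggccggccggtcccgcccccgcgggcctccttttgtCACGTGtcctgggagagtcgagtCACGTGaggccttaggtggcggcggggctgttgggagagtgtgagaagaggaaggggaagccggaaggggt
Atg5 (chr10:44268089-44268338, plus strand): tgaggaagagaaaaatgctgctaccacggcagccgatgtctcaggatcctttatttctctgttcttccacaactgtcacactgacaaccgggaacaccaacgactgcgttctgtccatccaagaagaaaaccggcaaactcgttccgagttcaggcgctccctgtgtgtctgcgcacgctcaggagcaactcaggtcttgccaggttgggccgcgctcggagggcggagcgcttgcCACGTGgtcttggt
CACGTG stood in the window of 6 of the 35 genes (17.1%), namely Atg14, Atg3, Atg5, Atg7, Bnip3 and Lamp1, and in 8.09% of all 27025 genes with a promoter (7.15% of 32851 promoters). Of the genes that passed on the Western diet and had a promoter, 4 of 10 held it, and of the others 2 of 25. The Lamp1 window held 4 copies, at 61, 45, 28 and 15 bases before the start, a number reached by 8 of all 32851 promoters. Atg3 held 2 copies, and the second of them was part of TCACGTGA, the longer core of the element bound by TFEB, which contains CACGTG and stood in 0.974% of all promoters and in no other of the 35 genes. GTAAACA, a FOXO core, and TCAAGGTCA, the element of the PGC1alpha partner ERRalpha, stood in none of the 35 and in 3.65% and 0.423% of all promoters. These matches describe letters in a window, without a test, and no binding was measured.

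Cargo receptors held the largest change among the 42 genes. Bnip3, which sits in the outer mitochondrial membrane and tethers mitochondria to the phagophore, had log2 signals from 9.51 to 10.17 (median 9.63) in the iPGC1afl/fl CHOW group, from 11.11 to 11.35 (median 11.22) in the iPGC1afl/fl HFD group and from 11.10 to 11.80 (median 11.30) in the iPGC1a-/- HFD group (probe at chr7:146082760-146082819, mm9). Every array on the Western diet, of either genotype, lay above every chow array. The change with diet was 2.78-fold, or 1.48 on the log2 scale (SE 0.12, 95% confidence interval 1.22 to 1.73, adjusted p = 1.12e-07, limma). Between the genotypes on the Western diet it was 0.13 (interval -0.13 to 0.39, adjusted p = 0.763).

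The other receptors moved less. Nbr1, a receptor for ubiquitinated cargo, ran from 7.46 to 8.00 (median 7.66) on chow, from 7.90 to 8.30 (median 8.07) on the Western diet and from 7.93 to 8.81 (median 8.23) on the arrays labelled iPGC1a-/- HFD. It rose with diet by 0.41 (SE 0.13, adjusted p = 0.0252), and 1 chow array reached into the range of the Western diet arrays. Bnip3l, also called Nix, is the close relative of Bnip3 that removes mitochondria from maturing red cells. It ran from 11.27 to 11.57 (median 11.48), from 11.55 to 11.83 (median 11.70) and from 11.58 to 11.89 (median 11.70) in the same order, a rise with diet of 0.22 (SE 0.07, adjusted p = 0.0354). Sqstm1 encodes p62, the receptor for ubiquitinated aggregates that is itself degraded by autophagy. Its arrays ran from 12.39 to 12.68 (median 12.56) on chow, from 12.69 to 12.92 (median 12.83) on the Western diet and from 12.84 to 13.43 (median 12.99) on the arrays labelled iPGC1a-/- HFD. The chow and Western diet arrays of Sqstm1 did not overlap, but its log2 fold change of 0.25 (SE 0.09) had an adjusted p of 0.0511. Optn, optineurin, which binds damaged mitochondria and bacteria, ran from 11.34 to 11.85 (median 11.67), from 11.78 to 12.06 (median 11.90) and from 11.78 to 12.32 (median 12.03), with a log2 fold change with diet of 0.29 and an adjusted p of 0.0555. In all, 3 of 5 receptors passed with diet, and all 5 had a higher mean.

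Conjugation genes supplied 5 of the 11 calls, out of 16 genes. Atg16l2, a relative of the scaffold Atg16l1, ran from 7.03 to 7.42 (median 7.15) on chow, from 7.60 to 7.92 (median 7.79) on the Western diet and from 7.36 to 7.86 (median 7.57) on the arrays labelled iPGC1a-/- HFD. Its diet groups did not overlap, and it rose by 0.58 (SE 0.10, adjusted p = 0.000406, limma), which is 1.50-fold and just under the threshold for size. Atg16l1 itself had a log2 fold change of -0.08 (adjusted p = 0.489). Atg3, the E2-like enzyme that transfers LC3 to its lipid, ran from 10.49 to 10.93 (median 10.75), from 10.86 to 11.29 (median 11.10) and from 10.99 to 11.34 (median 11.22), and rose by 0.36 (SE 0.09, adjusted p = 0.00870). The upper chow arrays of Atg3 overlapped the lowest Western diet array of iPGC1afl/fl mice and none of those labelled iPGC1a-/- HFD.

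Gabarapl1, a member of the GABARAP family that is attached to the membrane, ran from 10.35 to 10.96 (median 10.60) on chow, from 10.84 to 11.42 (median 10.97) on the Western diet and from 11.09 to 11.86 (median 11.30) on the arrays labelled iPGC1a-/- HFD. It rose with diet by 0.45 (SE 0.15, adjusted p = 0.0343), with overlap between the diet groups. The log2 fold changes of its relatives were 0.11 for Gabarap, 0.18 for Gabarapl2, 0.07 for Map1lc3a and -0.05 for Map1lc3b, and none of these passed. Atg4c, 1 of 4 proteases that trim and recycle these proteins, ran from 7.63 to 8.97 (median 8.77), from 8.91 to 9.30 (median 9.11) and from 9.08 to 9.27 (median 9.18). It rose by 0.51 (SE 0.16, adjusted p = 0.0272), and the chow range was wide because of 1 array at 7.63. Its relatives changed by 0.03 (Atg4a), 0.16 (Atg4b) and 0.19 (Atg4d) without passing. Atg5, which joins Atg12 to form the E3-like part of the system, ran from 9.97 to 10.52 (median 10.23), from 10.39 to 10.67 (median 10.45) and from 10.32 to 10.56 (median 10.37), and rose by 0.26 (SE 0.09, adjusted p = 0.0314). Atg12, Atg7 and Atg10, its partner and the E1-like and E2-like enzymes that join them, had log2 fold changes of 0.11, 0.01 and -0.05.

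Initiation and lysosomal control gave 3 calls. Ulk2, a kinase that starts the process, ran from 7.37 to 8.03 (median 7.81) on chow, from 7.96 to 8.41 (median 8.13) on the Western diet and from 8.23 to 8.72 (median 8.33) on the arrays labelled iPGC1a-/- HFD. It rose with diet by 0.37 (SE 0.11, adjusted p = 0.0238). The kinase Ulk1 and the other parts of the complex, Atg13, Atg101 and Rb1cc1, and the membrane protein Atg9a lay between 0.10 and 0.14 on the log2 scale, and none passed. Tfeb, the transcription factor that drives lysosomal and autophagy genes, ran from 7.40 to 7.55 (median 7.45), from 7.47 to 7.93 (median 7.80) and from 7.63 to 8.14 (median 7.85), and rose by 0.29 (SE 0.09, adjusted p = 0.0265). Its relative Tfe3 had a log2 fold change of 0.08. Lamp1, a major glycoprotein of the lysosomal membrane, ran from 15.01 to 15.40 (median 15.22) on chow, from 15.45 to 15.72 (median 15.60) on the Western diet and from 15.63 to 15.98 (median 15.82) on the arrays labelled iPGC1a-/- HFD (probe at chr8:13175277-13175336, mm9). No chow array of Lamp1 reached a Western diet array, and the rise with diet was 0.39 (SE 0.08, adjusted p = 0.00177, limma). Its promoter is the one with 4 E-box cores printed above.

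**Figure D2:**
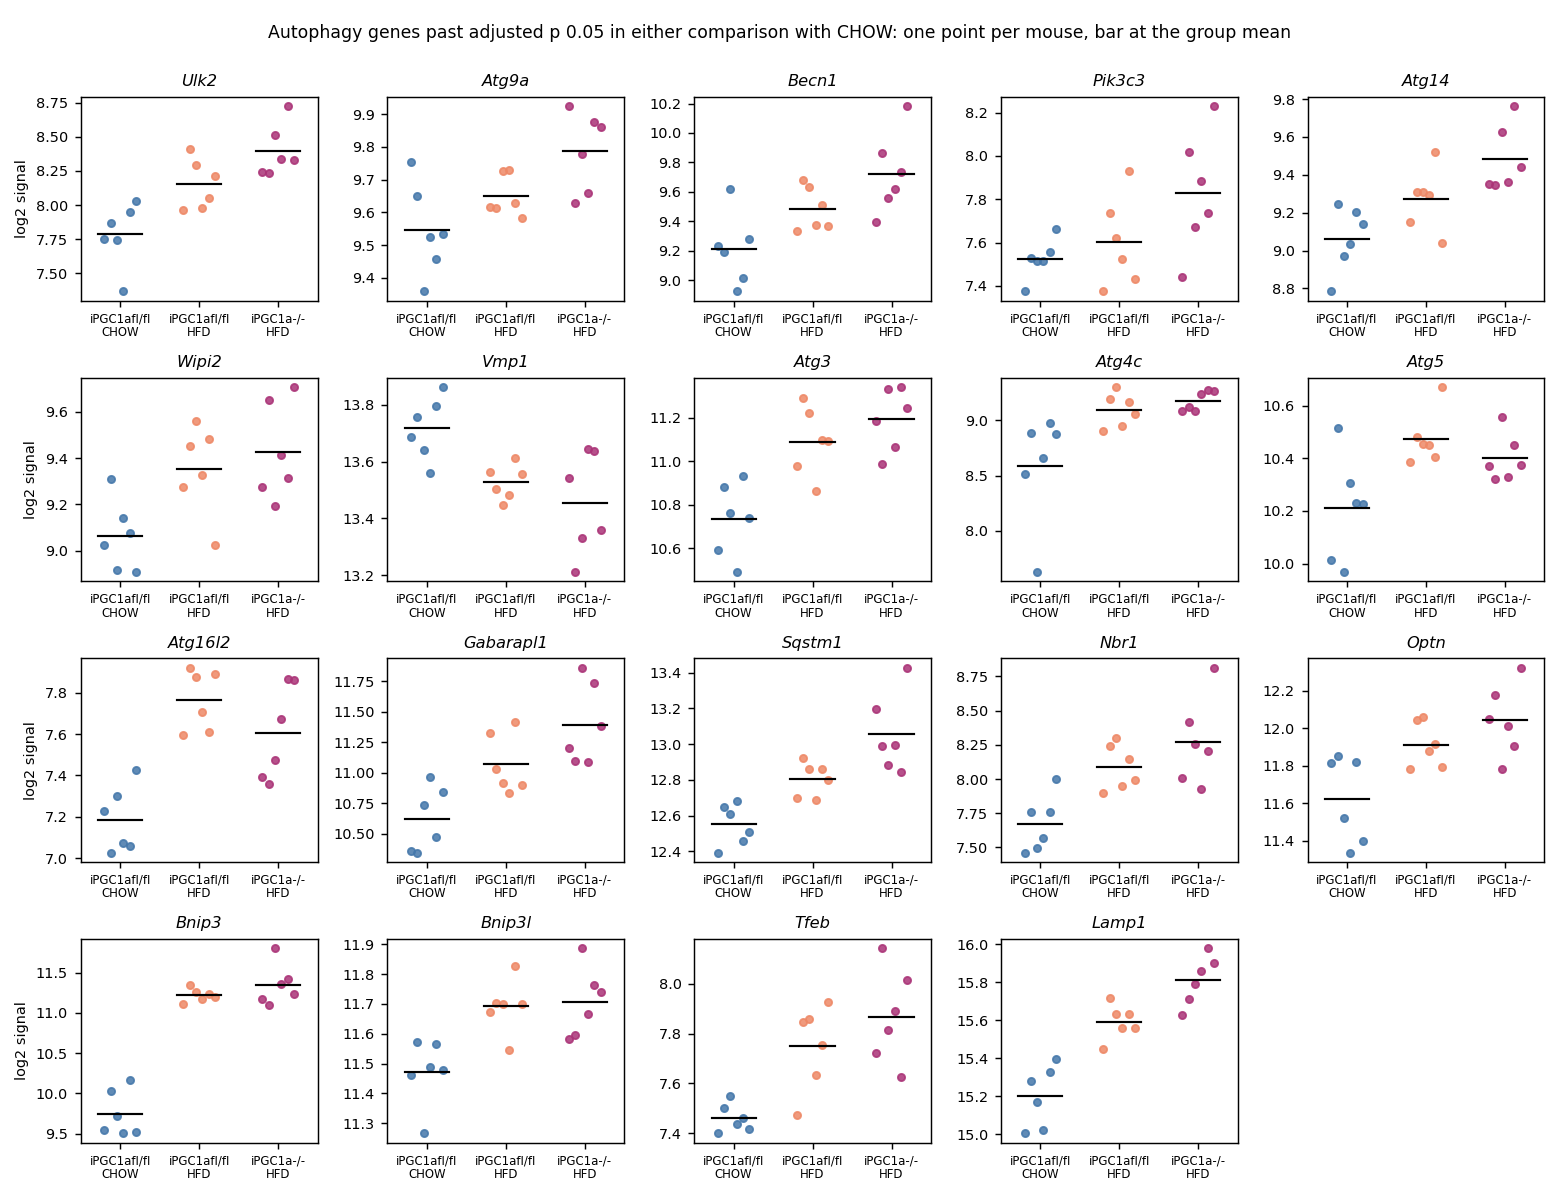
Log2 signal of the brightest probe in each mouse for the 19 genes past an adjusted p of 0.05 in either comparison with chow, with a bar at the group mean; the vertical scale differs between panels. Bnip3 and Lamp1 separate chow from both Western diet groups, while Atg4c has 1 chow array at 7.63, far under the rest.

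Nucleation had no call with diet. Of its 11 genes 6 had a higher and 5 a lower mean, and their median log2 fold change was 0.00389. Beclin 1 (Becn1) had 0.27 (adjusted p = 0.121), its lipid kinase Pik3c3 0.08, the kinase's regulatory subunit Pik3r4 0.07 and the targeting subunit Atg14 0.21 (adjusted p = 0.139). Wipi2, which reads the lipid made by that kinase, had 0.29 (adjusted p = 0.0527), and its relative Wipi1 had -0.17. Uvrag, the alternative Beclin 1 partner, had -0.18 (adjusted p = 0.101) and Vmp1, a membrane protein of the endoplasmic reticulum needed for phagophore growth, had -0.19 (adjusted p = 0.0989). Ambra1, Atg2a and Atg2b lay between -0.10 and 0.00389.

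Between the genotypes on the Western diet the shifts were small. The mean was higher on the arrays labelled iPGC1a-/- HFD for 32 of 42 genes and for 51.9% of all genes. The median log2 fold change was 0.07 over the 42 and 0.00594 over all genes. The smallest adjusted p was 0.300, for Atg4d, a protease that trims and recycles proteins of the GABARAP family. Its log2 signal ran from 13.24 to 13.48 (median 13.39) in the iPGC1afl/fl HFD group and from 12.95 to 13.24 (median 13.15) in the iPGC1a-/- HFD group, so that the ranges touched, with a log2 fold change of -0.24 (SE 0.07, interval -0.40 to -0.09). The genes higher at an unadjusted p under 0.05 were Ulk2 (0.24), Atg14 (0.21), Gabarapl1 (0.32), Sqstm1 (0.25) and Lamp1 (0.22), with adjusted p from 0.419 to 0.512. In none of the 42 did the 2 genotypes fail to overlap, which was so for 0.961% of all genes. The 1 interval that reached past 1.5-fold was that of Gabarapl1, from 0.01 to 0.64.

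The arrays labelled iPGC1a-/- HFD were also compared with the iPGC1afl/fl CHOW arrays, which differ from them in both diet and genotype and are the same chow arrays as above. In that comparison 17 of the 42 genes passed higher and 1 passed lower, beside 16.8% and 20.0% of all genes and 17.8% higher among the genes well above background on every array. Above 1.5-fold there were 6, Bnip3 (1.60 on the log2 scale), Gabarapl1 (0.78), Lamp1 (0.61), Ulk2 (0.61), Nbr1 (0.60) and Atg4c (0.59), beside 4.94% of all genes. This count was 2 without iPGC1a-/- HFD replicate 5 and 3 without chow replicate 1, 3 or 4. Every array labelled iPGC1a-/- HFD lay above every chow array for 10 of the 42, against 7.53% of all genes.

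All 5 cargo receptors passed in this comparison at the brightest probe, with Sqstm1 at 0.51 (adjusted p = 0.000321), Optn at 0.42 (adjusted p = 0.00483) and Bnip3l at 0.23 (adjusted p = 0.0180) beside Bnip3 and Nbr1. The second Optn probe, at 0.30 (adjusted p = 0.0722, limma), and the third Sqstm1 probe, at 0.14 (adjusted p = 0.438, limma), did not pass. The other tested probes of Sqstm1, Nbr1 and Bnip3l did. Nucleation gave 4 genes that were higher. Becn1 ran from 8.93 to 9.62 (median 9.21) on chow, from 9.34 to 9.68 (median 9.44) on the Western diet and from 9.39 to 10.18 (median 9.68) on the arrays labelled iPGC1a-/- HFD, a log2 fold change between the first and the last of 0.51 (SE 0.12, adjusted p = 0.00342). Atg14 ran from 8.78 to 9.25 (median 9.09), from 9.04 to 9.52 (median 9.30) and from 9.35 to 9.76 (median 9.40), with 0.42 (adjusted p = 0.00280) and no overlap between the first and the last. Wipi2 ran from 8.91 to 9.31 (median 9.05), from 9.02 to 9.56 (median 9.39) and from 9.19 to 9.71 (median 9.36), with 0.36 (adjusted p = 0.0117). The second Wipi2 probe had 0.17 and did not pass (adjusted p = 0.182, limma), and the third had 0.43 and did (adjusted p = 0.000680, limma). Pik3c3 ran from 7.37 to 7.66 (median 7.52), from 7.38 to 7.93 (median 7.57) and from 7.44 to 8.23 (median 7.81), with 0.31 (adjusted p = 0.0447), and its groups overlapped widely. That call was lost in 10 of the 18 fits with 1 array left out, with adjusted p up to 0.115 over the alternatives and these fits.

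Vmp1 was the gene that was lower at its brightest probe. Its arrays ran from 13.56 to 13.86 (median 13.72) on chow, from 13.45 to 13.61 (median 13.53) on the Western diet and from 13.21 to 13.65 (median 13.45) on the arrays labelled iPGC1a-/- HFD, a log2 fold change of -0.26 (SE 0.08, adjusted p = 0.0163). Its second probe had -0.13 and did not pass. Uvrag did not pass at its brightest probe (-0.11, adjusted p = 0.285, limma). Its other tested probes did pass lower, at -0.29 and -0.39 (adjusted p = 0.0340 and 0.0106, limma). Atg9a, the membrane protein that seeds the phagophore, ran from 9.36 to 9.75 (median 9.53), from 9.58 to 9.73 (median 9.62) and from 9.63 to 9.92 (median 9.82), with 0.24 (adjusted p = 0.0183). The other genes that passed were Atg3 (0.46), Atg16l2 (0.42) and Tfeb (0.41). Of the 11 genes that had passed with diet, 9 had a mean still further from chow on the arrays labelled iPGC1a-/- HFD, the exceptions being Atg5 and Atg16l2. Of all 42 genes, 32 had a higher mean there than on the iPGC1afl/fl HFD arrays, as did 51.9% of all genes tested. The 9 of 11 is therefore not read as a trait of the genes that passed, and the share among all genes passing with diet was not counted. The 2 comparisons share the chow arrays, and the step from one Western diet group to the other is the genotype comparison, in which none of the 42 passed.

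Several genes were read by more than 1 probe, and the choice of probe mattered for some of them. There were 90 tested probes for the 42 genes and 26 genes with more than 1. In 22 of these all probes had the same sign with diet, and in the other 4 (Atg13, Atg2b, Map1lc3b and Gabarap) none of the probes passed. In 5 genes another probe passed where the brightest did not. For Lamp2, the second major glycoprotein of the lysosomal membrane, the brightest probe, annotated to transcript variant 1, had a log2 fold change with diet of -0.03 (adjusted p = 0.881, chrX:35777505-35777564, mm9). The probe annotated to transcript variant 2 fell by 0.50 (adjusted p = 0.000862, chrX:35772774-35772833), and the third, at chrX:35806215-35806274, fell by 0.57 (adjusted p = 0.00319). These were the 2 tested probes of the 42 genes that passed lower with diet, beside 23 that passed higher. Both of them were lower on the arrays labelled iPGC1a-/- HFD too, with log2 fold changes against chow of -0.44 and -0.46 (adjusted p = 0.00169 and 0.00922).

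Rb1cc1, which encodes the scaffold FIP200 of the ULK complex, had 8 probes, all with a positive log2 fold change with diet, and 3 of them passed, at 0.28, 0.51 and 0.34, while its brightest had 0.12. The second probe of Atg7 rose by 0.45 (adjusted p = 0.00163), where the brightest had 0.01. The remaining genes of this kind were Atg4b, with 1 of 4 probes at 0.37 (adjusted p = 0.0348), and Wipi2, with 1 of 3 at 0.36 (adjusted p = 0.00417). The brightest Tfeb probe is annotated to a predicted transcript, and another probe, annotated to its curated RefSeq transcripts, rose by 0.74 (adjusted p = 8.27e-05). Of the 4 tested Tfeb probes these 2 passed, and the remaining ones had 0.31 and 0.28 (adjusted p = 0.0980 and 0.0816, limma). Atg4c was the gene whose brightest probe passed alone, its others having 0.20 and 0.21. Both probes of Ulk2, Gabarapl1, Lamp1 and Bnip3l passed, and of the 3 Nbr1 probes 2 did. Bnip3, Atg3, Atg5 and Atg16l2 had 1 tested probe each. No tested probe of the 42 genes passed between the genotypes.

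**Figure D3:**
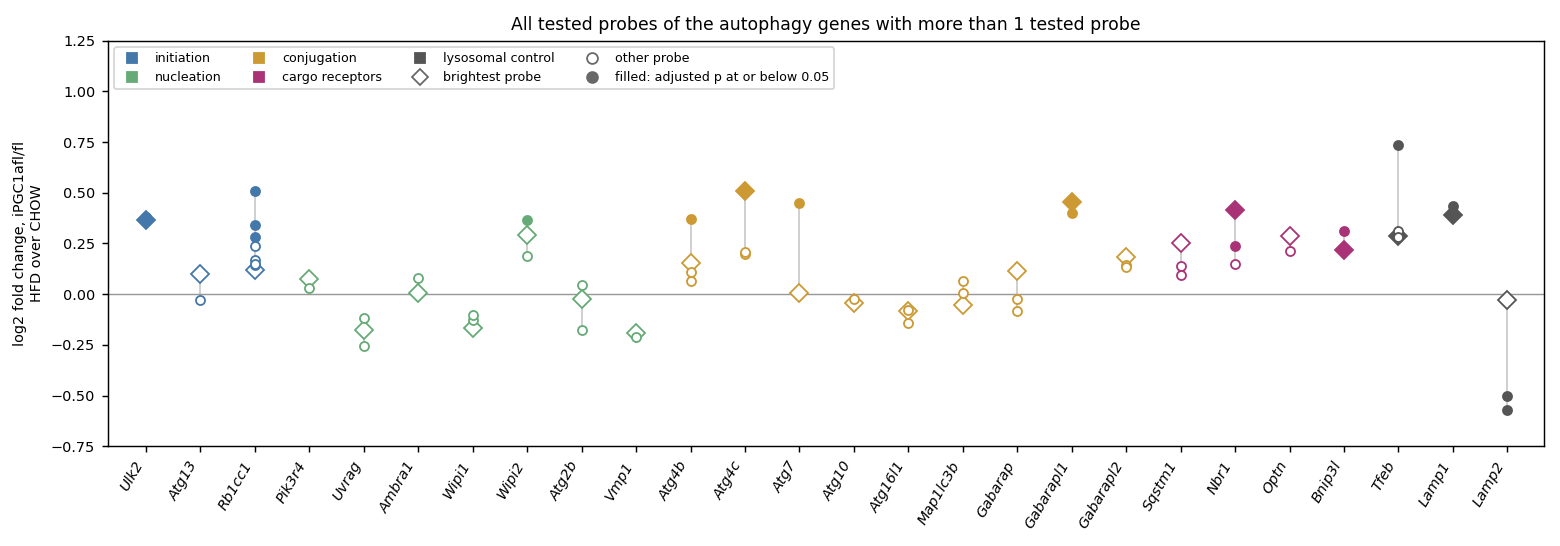
Log2 fold change with diet in iPGC1afl/fl mice for every tested probe of the 26 genes with more than 1, diamonds for the brightest probe and circles for the others, filled at an adjusted p of 0.05 or less. The 2 filled circles under 0 are Lamp2 probes at -0.50 and -0.57, and the Tfeb circle at 0.74 is the highest point.

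Genes that feed into the pathway or act after it were read from 6 further lists. Beside their counts with diet stand the shares of all genes, 10.4% higher and 14.2% lower. Of 26 tested genes for nutrient sensing (AMPK, TSC and mTORC1), 4 rose and 1 fell with diet. They included Sesn1 (0.55) and Sesn2 (0.47), sestrins that restrain mTORC1, and Prkag2 (0.49), a regulatory subunit of AMPK. Of 13 other genes for autophagosome formation, 3 rose and 1 fell, and Tmem41b (0.46), Zfyve1 (0.43) and Wdr45 (0.37) were the largest changes. Of 13 other receptors and mitophagy genes, 2 rose and none fell: Pink1 (0.71, adjusted p = 1.09e-05), the kinase that marks depolarised mitochondria, and Sec62 (0.27), a receptor for the endoplasmic reticulum. Median log2 fold changes in these 3 lists were -0.03, 0.06 and 0.14.

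Of 15 genes for fusion with the lysosome, 2 rose, Rilp (0.35) and Vamp8 (0.33). Of 16 subunits and partners of the vacuolar ATPase, which acidifies the lysosome, none rose and Atp6ap2 fell by 0.46. Lysosomal hydrolases and membrane proteins went both ways, with 6 of 37 higher and 8 lower, beside 10.4% and 14.2% of all genes. Gusb, the lysosomal glucuronidase, had -0.80 (adjusted p = 0.00201) and Lgmn, the protease legumain, had -0.78 (adjusted p = 0.00542). In the last 3 lists the medians were 0.03, 0.04 and -0.05. No gene of any of these 6 lists passed between the genotypes. The smallest adjusted p there was 0.0570 (limma), among the other genes for autophagosome formation.

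Markers of other cell types moved with diet in the same arrays, and in bulk RNA fewer cells of a type and less RNA per cell cannot be told apart. All 6 T cell markers fell (median -1.64 on the log2 scale), as did all 6 B and plasma cell markers (median -1.97) and all 6 goblet cell markers (median -0.73). Of the cycling cell markers 3 of 6 fell, of the macrophage and dendritic cell markers 2 of 5 and of the stromal markers 1 of 6. Paneth cell markers had 1 of 5 lower and enteroendocrine markers 1 of 6. Among all genes 14.2% passed lower with diet. The summed T cell signal ran from 11.07 to 12.47 on chow, from 10.67 to 10.93 on the Western diet (1 array with a missing spot left out) and from 10.66 to 11.21 on the arrays labelled iPGC1a-/- HFD, on the log2 scale. The summed B and plasma cell signal ran from 10.68 to 12.15, from 7.81 to 10.36 and from 8.82 to 9.98, and no fewer than 13 of 18 arrays detected each of these markers. Of 12 enterocyte markers 3 rose (Lct, Apoa4 and Alpi) and 1, Slc10a2, fell, with a median of 0.09 and summed signals from 19.83 to 20.08, from 19.94 to 20.17 and from 20.08 to 20.31. Between the genotypes no marker of any of these lists passed. The part of cell make-up in the changes of the autophagy genes was not tested.

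**Figure D4:**
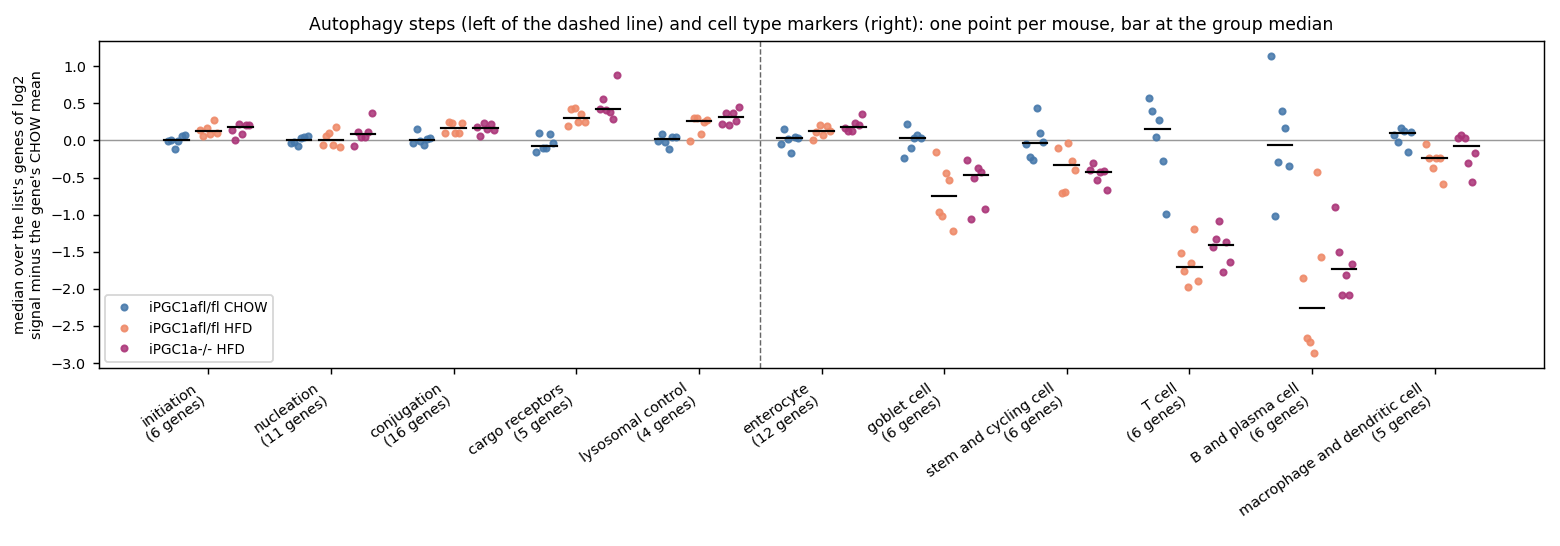
For each mouse, the median over a list's genes of log2 signal minus that gene's mean on chow, for the 5 autophagy steps and for 6 lists of cell type markers, with a bar at the group median. Cargo receptors and lysosomal control lie above 0 in nearly all Western diet mice, and nucleation lies around 0 in iPGC1afl/fl HFD mice. The T cell, B and plasma cell and goblet cell markers lie below 0 in the Western diet mice. T cell and B and plasma cell markers lie further from 0 than cargo receptors in every Western diet mouse. Goblet cell markers do so in some of these mice only.

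The changes were also read within slides. Each of the 11 genes that passed with diet had the same sign in all 3 slides, with Bnip3 at 1.66, 1.34 and 1.42. Of all 42 genes, 28 kept their sign in this way. The 11 were selected on these same arrays, which favours agreement in sign, so this is a description and not an independent check. The median over the 42 genes was 0.26, 0.10 and 0.06 in slides 1, 2 and 3, and in the genotype comparison 0.02, 0.10 and 0.11. All 18 genes that passed against chow on the arrays labelled iPGC1a-/- HFD, selected likewise, kept their sign in all 3 slides, beside 31 of all 42. The scaling of the arrays set how calls split: among all genes that passed with diet, 42.2% were higher, and this share was 58.6% with the signal scaled to the 75th percentile and 55.2% with the background-subtracted signal scaled so. The 42 genes had 15 and 17 calls with diet under these scalings, all higher, while the share of all genes that passed higher went from 10.4% to 13.3% and 13.9% and the median over all genes to 0.08 and 0.05 on the log2 scale. Leaving out 1 iPGC1afl/fl HFD array, replicate 2, reduced the 11 calls with diet to 4, which were Atg3, Atg16l2, Bnip3 and Lamp1. There were 6 calls without chow replicate 1 or iPGC1afl/fl HFD replicate 5, and 7 without iPGC1afl/fl HFD replicate 3.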

How the data were processed

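Ileal cells released by chelation were taken from 18 mice, 1 Agilent SurePrint G3 Mouse GE v2 array each, and the authors deposited spot intensities as read by Agilent Feature Extraction 10.10.1.1, with probe positions on mm9. The authors also deposited a table of log2 values, which per their methods were filtered, corrected for washing bath and labelling serial and normalized with qsmooth; it was used as an alternative, since those batches are not in the sources used here. From the median spot intensity, control and outlier spots were left out, and a probe was kept where 5 or more of the 6 arrays in some group read it well above background (32726 probes). Log2 values were normalized by smooth quantiles (window 0.05), and 1 limma 3.58.1 model of the 3 groups was fitted in R 4.3.3, with Benjamini-Hochberg adjustment over all probes. A gene was read from its brightest probe. Passed means an adjusted p of 0.05 or less. Signals of different probes are not on 1 scale, so no level is compared between genes. The number of arrays limits the precision.

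Named with full values were all members passing in any comparison, and of each further list the passing genes with the 3 largest changes, except 1 gene that is not reported here. The members and lists were chosen with earlier results of these data known. Alternatives were 12 choices of signal, scaling, filter, block, variance and probe, and leaving out each array. The code of the fit was run on simulated data with independent normal noise, and no result above rests on that run. Figures were drawn with matplotlib 3.10.9 in Python 3.11.15.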

Additional observations from a re-analysis of the deposited data

Results flagged for a closer look

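Of 126 group values of the 42 genes (42 genes in 3 groups of 6 arrays), 7 held 1 array whose gap to its nearest neighbour was a large share of the group's range, where chance gives about 1 in 20. In the iPGC1afl/fl CHOW group these were Atg4c, with replicate 3 at a log2 signal of 7.63 and the next at 8.51, Bnip3l, with replicate 3 at 11.27 and the next at 11.46, Atg7, with replicate 6 at 9.42 and the next at 9.73, and Lamp2, with replicate 4 at 9.71 and the next at 10.104. In the iPGC1afl/fl HFD group they were Atg13, with replicate 5 at 11.84 and the next at 11.68, Atg5, with replicate 6 at 10.67 and the next at 10.48, and Uvrag, with replicate 6 at 9.11 and the next at 9.35. Atg4c, Bnip3l and Atg5 are among the genes that passed with diet. The arrays with more than 1 such value were chow replicate 3 and iPGC1afl/fl HFD replicate 6, with 2 each.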

How the results depend on the processing

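Among the 12 alternatives, the 11 calls with diet became 17 under 75th-percentile scaling of the background-subtracted signal, and calls above 1.5-fold became 2 with that signal, with quantile normalization, under the same scaling of the median signal and with the authors' values, by adding Atg16l2. The median log2 fold change over the 42 genes with diet was 0.22 and 0.196 under these 2 scalings, where that over all genes was 0.05 and 0.08, and against chow on the arrays labelled iPGC1a-/- HFD it was 0.27 with the background-subtracted signal. In that comparison calls above 1.5-fold fell to 3 with normexp correction. The genotype comparison gave 0 calls throughout. Of the 11 genes that passed with diet, 9 passed in all 12 alternatives (Atg4c and Atg5 each missed 1), and 4 also with any single array left out. Of the 18 that passed against chow on the arrays labelled iPGC1a-/- HFD, 16 passed in all 12, the exceptions being Pik3c3 and Vmp1, and 14 also with any single array left out. No gene that passed changed sign.

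With 1 array left out, calls with diet ran from 4 to 14. They were 6 without chow replicate 1, 4 without iPGC1afl/fl HFD replicate 2, 6 without its replicate 5 and 7 without its replicate 3. Calls above 1.5-fold ran from 1 to 2 with diet and from 2 to 6 for the arrays labelled iPGC1a-/- HFD against chow, where they were 2 without iPGC1a-/- HFD replicate 5, 3 without chow replicates 1, 3 or 4 and 4 without iPGC1a-/- HFD replicate 6. With the replicate number as a block there were 11 calls with diet, 0 between genotypes and 20 against chow for the arrays labelled iPGC1a-/- HFD. The labels give the numbers no shared origin, and deviations of same-numbered arrays correlated between -0.22 and 0.35. The correlation was over 0.1 in 4 of 6 pairs for chow with iPGC1afl/fl HFD, 3 of 6 for the 2 genotypes on that diet and 2 of 6 for chow with iPGC1a-/- HFD. An array correlated best with its own number in 4, 3 and 1 of 6. These values do not decide whether same-numbered arrays share an origin. Because the labels give none, the main fit did not use the numbers as pairs. With slide as a block the counts were 11, 0 and 18.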
